A study of Arabidopsis thaliana with 6 samples.

Results

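The genes described here are 7 pectin methylesterase genes of Arabidopsis thaliana, also called pectinesterase genes, and AT3G62180, which encodes a protein of the invertase and pectin methylesterase inhibitor family. They were picked from the array's probe annotation by name, with their change between the groups known. Of 13333 loci with a probe set that names a single gene, these are 8, and each has 1 such probe set. All 8 passed the filter on dim probe sets. The values that chose them, their signals in both groups and the direction of the difference, are given below as a description and without a test.

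RNA came from whole flowers at stage 15, an open flower whose stigma stands above the long anthers. The 3 overexpressor samples came from transgenic plants that overexpress miR159a, a microRNA best known for pairing with transcripts of MYB transcription factors. The 3 samples they were set against came from wild-type Columbia plants. Each sample was read on 1 one-colour array, and the samples of either group are lettered a, b and c. The labels give neither the promoter that drives the transgene nor the number of transgenic lines. They also do not say whether a letter stands for separate plants, so the spread between samples may be technical.

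Pectin is laid down in plant cell walls with many of its acid groups masked by methyl esters. Pectin methylesterases remove these esters in the wall. The exposed stretches can be held together by calcium, which stiffens the wall, or can be cut by polygalacturonases and pectate lyases. Small inhibitor proteins bind the enzymes and block them, and relatives of these inhibitors act on invertases instead. In growing pollen tubes the wall at the tip is rich in esterified pectin while the flanks are de-esterified, and many genes of both families are known from pollen.

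Values are the deposited signals, linear intensities already scaled to a common level on each array. Array medians were between 85.2 and 97.0. Differences are on the scale log2(signal + 16), overexpressor minus wild type, which understates the change of dim genes. A gene outside the 8 is called lower or higher where limma's adjusted p was under 0.05 over the 17059 probe sets tested. Without adjustment, at p under 0.05, 5.73% were lower and 3.05% higher. By the adjusted rule 2.17% of tested probe sets were lower and 0.135% higher, 370 and 23 in number. With the replicate letter as a block, 570 were lower and 71 higher. Leaving out wild-type replicate b gave 30 lower and 0 higher, with 345 higher at an unadjusted p under 0.05 in limma. Deviations from the group means correlated between arrays of the same letter (r was 0.57 for a, 0.36 for b, 0.38 for c). The letter a had the highest r, and the counts below are also given without both arrays lettered a. That setting was chosen after the data were seen. Whole flowers mix many cell types, so fewer cells of a type and less RNA per cell cannot be told apart here.

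The first 3 esterases consist of the catalytic domain without the inhibitor-like region that many family members carry in front of it. AT5G07430 had signals of 87.3, 311.3 and 14.9 in overexpressor replicates a, b and c, against 2238.1, 1639.4 and 1256.6 in wild type. The groups did not overlap, and the highest overexpressor array was b and the lowest c. The means were 138 ± 155 in the overexpressor and 1711 ± 495 in wild type (SD, n = 3 each), with a log2 difference of -4.05 (SE 0.73).

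AT5G07420 is the next gene on chromosome 5 to AT5G07430. Its signals were 16.5, 34.4 and 1.8 in overexpressor replicates a, b and c, against 324.6, 237.1 and 210.6 in wild type. The order of the arrays was that of its neighbour in both groups, again with no overlap. The means were 17.6 ± 16.3 in the overexpressor and 257 ± 59.7 in wild type (SD, n = 3 each), and the log2 difference was -3.13 (SE 0.36). It was -4.40 with a pseudocount of 1 and -1.98 with 64. Whether the probe sets of these neighbours read each other's transcripts was not tested.

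AT3G17060 had signals of 35.1, 137.7 and 2.8 in overexpressor replicates a, b and c, against 1517.7, 887.9 and 730.6 in wild type. It spread most widely of the 8 across the overexpressor arrays, where replicate b was 49.2 times replicate c. Its means were 58.5 ± 70.4 in the overexpressor and 1045 ± 417 in wild type (SD, n = 3 each), with a log2 difference of -4.26 (SE 0.67). This was the most negative of the 8 on that scale.

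The other 4 esterases carry the inhibitor-like region ahead of the catalytic domain, and 3 of them were lower. AT3G05610 had signals of 43.9, 143.0 and 8.5 in overexpressor replicates a, b and c, against 1654.7, 906.6 and 667.9 in wild type. It followed the same order of arrays as the 3 esterases above, with no overlap between the groups. Its means were 65.1 ± 69.7 in the overexpressor and 1076 ± 515 in wild type (SD, n = 3 each), and the log2 difference was -4.05 (SE 0.63).

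AT3G06830 had signals of 16.8, 28.5 and 19.4 in overexpressor replicates a, b and c, against 214.3, 143.3 and 148.5 in wild type. Its overexpressor arrays lay close together, with a highest-to-lowest ratio of 1.70. The means were 21.6 ± 6.14 in the overexpressor and 169 ± 39.6 in wild type (SD, n = 3 each), with a log2 difference of -2.29 (SE 0.20). With a pseudocount of 64 the difference was -1.43.

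AT2G47550 had signals of 40.5, 28.2 and 20.0 in overexpressor replicates a, b and c, against 302.0, 193.1 and 256.9 in wild type. It was the exception among the lower genes in that replicate a, not b, was highest in the overexpressor. The means were 29.6 ± 10.3 in the overexpressor and 251 ± 54.7 in wild type (SD, n = 3 each), with a log2 difference of -2.55 (SE 0.23).

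AT3G43270, an esterase of the same layout, was the 1 gene of the 8 that was higher in the overexpressor. Its signals were 357.6, 376.3 and 367.8 in overexpressor replicates a, b and c, against 218.7, 190.6 and 226.6 in wild type. All overexpressor arrays lay above all wild-type arrays, and they differed from each other by a factor of only 1.05. The means were 367 ± 9.36 in the overexpressor and 212 ± 18.9 in wild type (SD, n = 3 each), a ratio of 1.73, with a log2 difference of 0.75 (SE 0.14). The difference between arrays of the same letter was 0.67 for a, 0.93 for b and 0.66 for c on the log2 scale.

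AT3G62180, the inhibitor-like gene, was lower in the overexpressor, as 6 of the 7 esterases were. Its signals were 22.0, 80.5 and 9.5 in overexpressor replicates a, b and c, against 1165.1, 598.0 and 432.0 in wild type. Wild-type replicate a was 2.70 times replicate c, the widest wild-type range of the 8 genes. The means were 37.3 ± 37.9 in the overexpressor and 732 ± 384 in wild type (SD, n = 3 each), a 19.6-fold lower mean, with a log2 difference of -3.92 (SE 0.52).

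**Figure D1:**
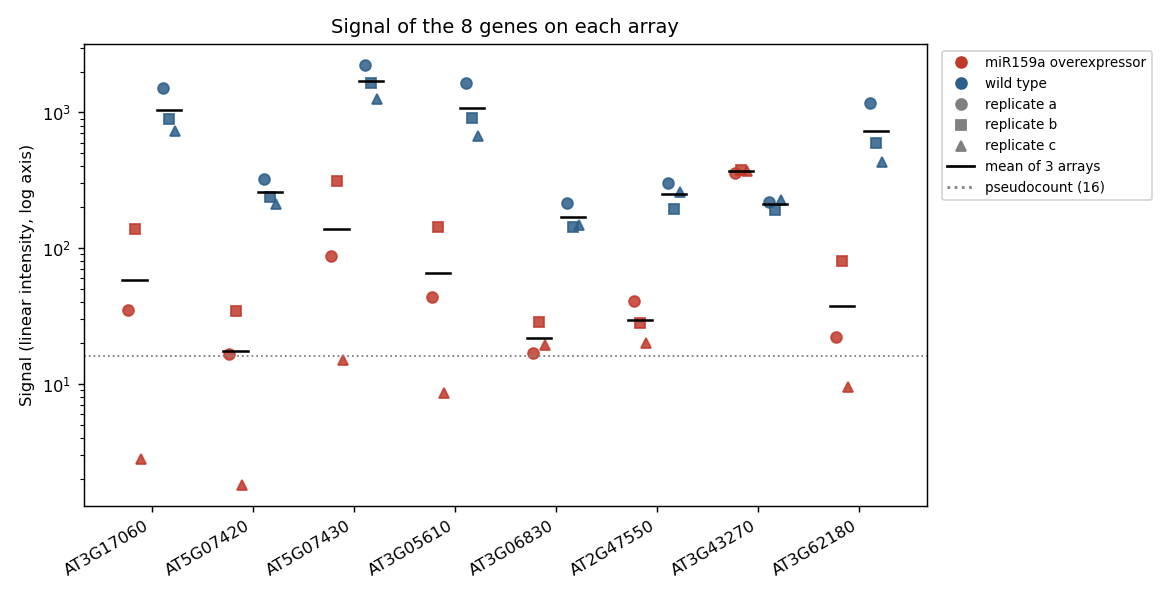
Signal of each of the 8 genes on each array, on a log axis, with overexpressor arrays in red to the left of wild-type arrays in blue; marker shapes give the replicate letter, black bars the mean of 3 arrays and the dotted line the pseudocount of 16. The overexpressor arrays lie below all wild-type arrays for 7 genes and above them for AT3G43270, and replicate c is the lowest overexpressor array for 6 of the 7 lower genes.

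In all 8 genes the 2 groups of arrays were fully separated. Over all tested probe sets, 7.2% separated in this way with the overexpressor lower and 7.46% with it higher. The 8 were chosen for this difference, so nothing is read from the count. All 7 lower genes were lower by at least 1 log2 unit, against 2.84% of all tested probe sets, and AT3G43270 was below that size.

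The lower genes differed in how much signal was left. The overexpressor mean was 5.10% of the wild-type mean for AT3G62180, 5.60% for AT3G17060, 6.05% for AT3G05610, 6.82% for AT5G07420 and 8.05% for AT5G07430. It was 11.8% for AT2G47550 and 12.8% for AT3G06830. Array by array, the median share of the wild-type mean over the 7 genes was 5.10% on overexpressor array a, 13.3% on array b and 0.871% on array c. Signals on array c were as low as 1.8, for AT5G07420, so this last share rests partly on dim readings. Replicate b was the highest overexpressor array for 6 of the 7, and for 78.6% of the 370 probe sets called lower. Wild-type replicate a was the highest wild-type array for 7 of the 7, and for 81.4% of those 370.

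By their spread the 7 fell into a set of 5 and a set of 2, which was seen in the data and is not tested. Across the overexpressor arrays the highest signal was 8.47 to 49.2 times the lowest for AT3G17060, AT5G07420, AT5G07430, AT3G05610 and AT3G62180. The same ratio was 1.70 and 2.03 for AT3G06830 and AT2G47550. For the set of 5 the lowest signal was that of replicate c, from 1.8 to 14.9. All of these lay below the pseudocount of 16, so the wide ratios rest on dim signals. Deviations from the group means correlated over the 6 arrays with r from 0.90 to 0.99 among the 10 pairs of the set of 5. The r of AT3G06830 with those 5 ran from 0.58 to 0.85, that of AT2G47550 from 0.36 to 0.51 and that of AT3G43270 from 0.08 to 0.15. These 6 points share the arrays and their scaling, and the deviations sum to 0 within each group. The r values use the same arrays in whose spread the 2 sets were seen, so they are no separate support for them.

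Between arrays of the same letter, the median log2 difference of the 7 lower genes was -4.45 for a, -2.34 for b and -4.13 for c. For b the 7 genes lay close together, from -2.67 to -1.84. For a they ran from -4.96 to -2.49 and for c from -5.36 to -2.22. The plot of signal left by array sets each overexpressor array against the wild-type mean instead, and there too b is highest for most of the 7 and of the relatives described next.

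**Figure D2:**
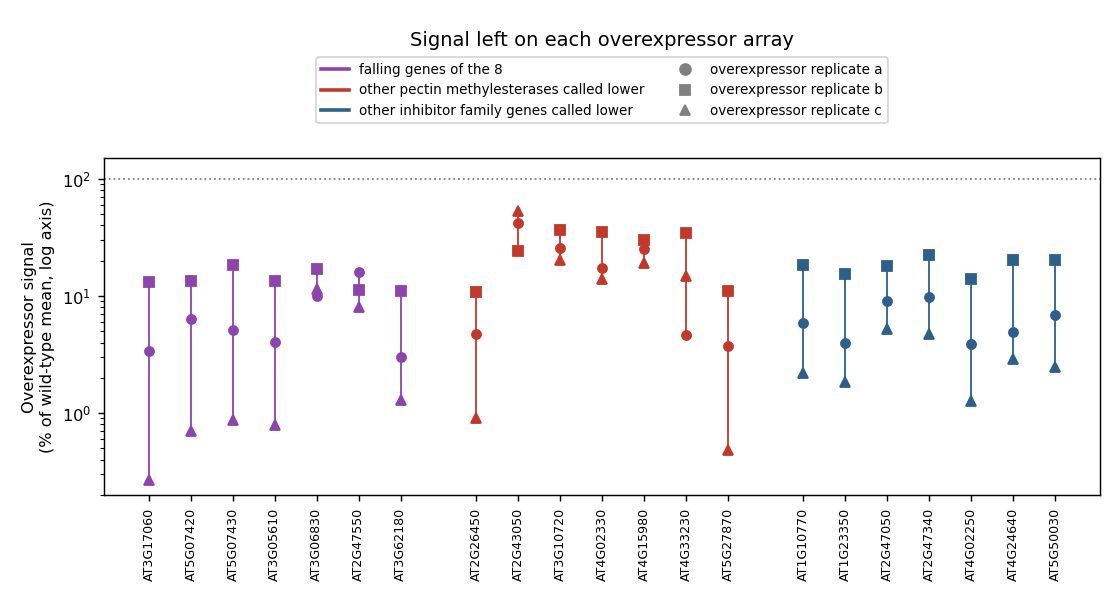
Signal on each overexpressor array as a percentage of the wild-type mean, on a log axis, for the 7 lower genes of the 8 (purple), the other pectin methylesterase genes called lower (red) and the other inhibitor family genes called lower (blue); marker shapes give the overexpressor replicate and the dotted line marks 100%. Replicate b is highest for 6 of 7 purple genes, 6 of 7 red genes and 7 of 7 blue genes.

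Among the tested genes of the rest of the pectin methylesterase family, some fell and the others did not pass. The list of the family holds 66 genes, of which 59 are outside the 8, 37 of those have a single-gene probe set and 20 were tested. Of these 20, 7 fell, 0 rose and 13 did not pass, so 35.0% fell against 2.17% of all tested probe sets. At an unadjusted p under 0.05 limma gave 7 lower and 1 higher. The filter took the mean over all 6 arrays, so a gene bright in wild type alone could pass it. Without the filter 37 were tested and 4 fell, against 291 of all 22746 probe sets. The median log2 difference of the 20 was -0.02, close to the 0.04 of all tested probe sets. The list was drawn up with earlier results of these data known, although by family and not by change.

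The 2 deepest falls were those of AT5G27870 and AT2G26450. AT5G27870 averaged 23.0 ± 24.5 in the overexpressor and 453 ± 115 in wild type (SD, n = 3 each), with a log2 difference of -3.75 (limma adjusted p = 0.0104). AT2G26450 averaged 36.4 ± 33.2 in the overexpressor and 662 ± 482 in wild type, with a difference of -3.66 (adjusted p = 0.0208). Both kept about the same share of the wild-type mean, 5.09% and 5.50%, as the most reduced of the 8 genes.

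Smaller falls left a larger share of the signal. AT4G02330, AT3G10720, AT4G33230 and AT4G15980 fell, with log2 differences of -1.82, -1.76, -1.75 and -1.52 (limma adjusted p = 0.0128, 0.0107, 0.0255 and 0.0198). AT3G10720 averaged 126 ± 38.5 in the overexpressor and 458 ± 57.9 in wild type (SD, n = 3 each), and so kept 27.6%. AT2G43050 fell by 0.97 (limma adjusted p = 0.0490) and kept 39.5%, the largest share of the 7. Its adjusted p ran from 0.0197 to 0.198 over 16 other settings, 3 of which passed.

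The 13 esterase genes that did not pass had log2 differences from -0.08 to 0.58. Chosen after its values were seen, AT5G49180 averaged 1018 ± 40.0 in the overexpressor and 679 ± 111 in wild type (SD, n = 3 each), with a difference of 0.58 and limma adjusted p = 0.199. On the side of AT3G43270 it was the 1 other esterase at an unadjusted p under 0.05 in the reported fit. Some other settings without the replicate block gave 2, such as a pseudocount of 1 or no filter, and the block gave 5. How many of the family's 7 falls passed the adjusted rule depended on single arrays. Leaving out wild-type replicate a or c, 5 passed, and leaving out overexpressor replicate b, 6 passed. Leaving out overexpressor replicate a, 3 passed, and leaving out overexpressor replicate c, 2 passed. Leaving out wild-type replicate b, or both arrays lettered a, 0 passed. In both of the last 2 settings 7 were lower at an unadjusted p under 0.05.

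**Figure D3:**
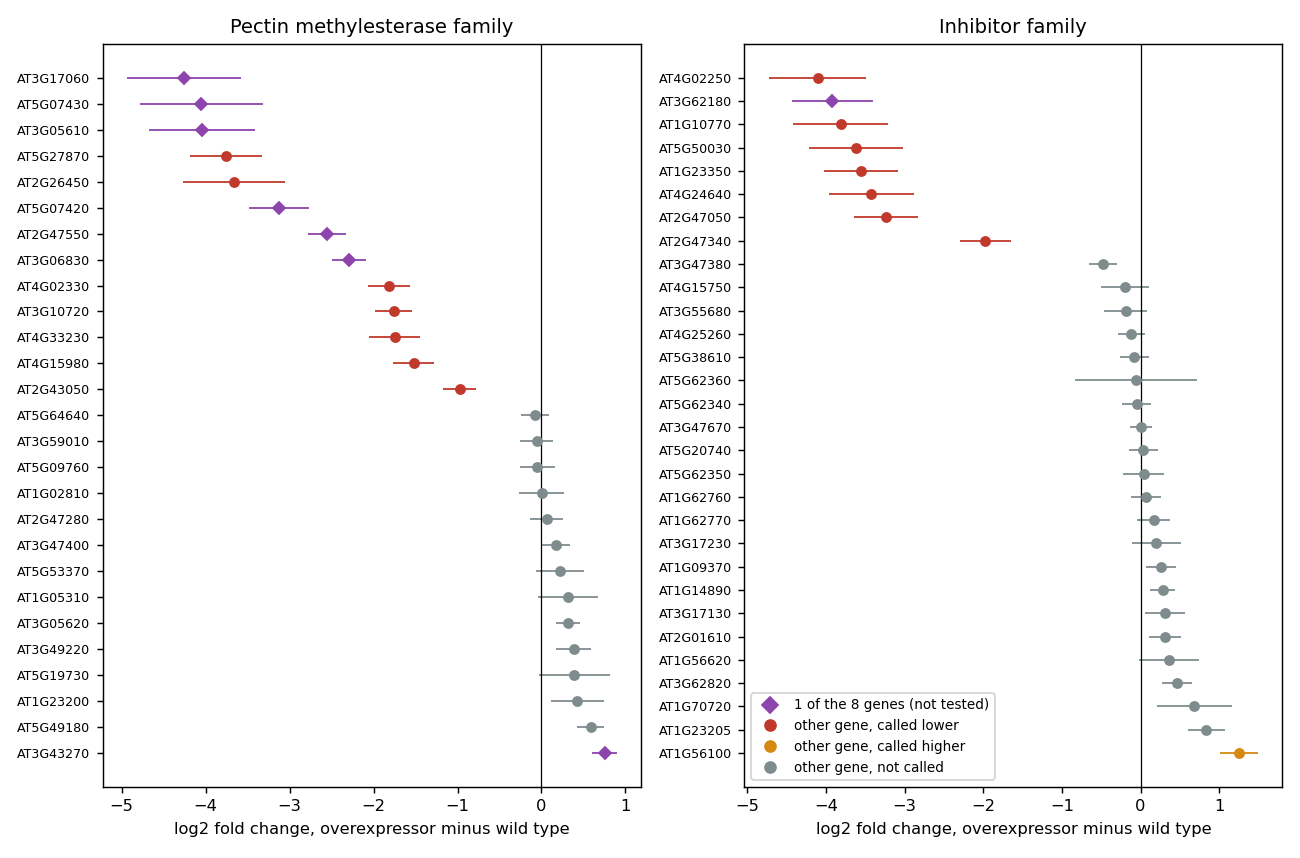
Log2 difference, overexpressor minus wild type, with its standard error (bars, n = 3 per group), for the tested genes of the pectin methylesterase family (left) and the inhibitor family (right). Purple diamonds are the 8 genes, shown without a test; 7 other esterase genes and 7 other inhibitor family genes were called lower (red), 1 inhibitor family gene, AT1G56100, was called higher (orange), and grey genes did not pass.

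In the inhibitor family, genes other than AT3G62180 fell and 1 rose. The list holds 75 genes, 74 of them other than AT3G62180, of which 36 have a single-gene probe set and 29 were tested. Of these, 7 fell, 1 rose and 21 did not pass, which is 24.1% lower and 3.45% higher against 2.17% and 0.135% of all tested probe sets. The median log2 difference was 0.01. With no filter 36 were tested, of which 6 fell and 0 rose. The list mixes inhibitors of pectin methylesterases and of invertases, and for most of its members the enzyme they act on is not given here.

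AT4G02250 fell most, averaging 97.8 ± 103 in the overexpressor and 1541 ± 668 in wild type (SD, n = 3 each), with a log2 difference of -4.11 (limma adjusted p = 0.0159). AT1G10770 averaged 238 ± 229 in the overexpressor and 2702 ± 745 in wild type, with a difference of -3.82 (adjusted p = 0.0178). AT5G50030 averaged 212 ± 200 in the overexpressor and 2150 ± 555 in wild type, with a difference of -3.62 (adjusted p = 0.0200). AT1G23350, AT4G24640 (APPB1), AT2G47050 and AT2G47340 fell, with log2 differences of -3.56, -3.43, -3.24 and -1.97 (limma adjusted p = 0.0116, 0.0177, 0.0107 and 0.0205). All 7 kept between 6.34% and 12.3% of the wild-type mean, against 5.10% for AT3G62180.

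AT1G56100 was the inhibitor family gene that rose. It averaged 318 ± 99.7 in the overexpressor and 120 ± 12.8 in wild type (SD, n = 3 each), with a log2 difference of 1.25 (limma adjusted p = 0.0409). Its overexpressor signals, unlike those of AT3G43270, varied between arrays, at 288% of the wild-type mean in replicate a, 173% in b and 334% in c. With the replicate letter as a block AT1G23205 passed too, with a difference of 0.84 and limma adjusted p = 0.0246, against 0.198 without the block. Its means were 212 ± 60.8 in the overexpressor and 109 ± 17.9 in wild type (SD, n = 3 each).

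The inhibitor family's counts also depended on single arrays. Leaving out wild-type replicate a, 3 fell, and leaving out overexpressor replicate a, 2 fell. Leaving out wild-type replicate b, or both arrays lettered a, 0 fell by limma's adjusted p. At an unadjusted p under 0.05, 8 and 7 were lower in the last 2 settings. The rise of AT1G56100 passed in 7 of 17 other settings, with adjusted p from 0.00540, without overexpressor replicate b, to 0.175. On all 6 arrays it did not pass with a pseudocount of 1 or 64, with no filter or with the lowest 50% left out (limma adjusted p = 0.0670, 0.0581, 0.0747 and 0.0545). It also did not pass when any other single array was left out, with adjusted p from 0.0890 to 0.171, or without both arrays lettered a (0.175).

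Few genes of 2 other steps in pectin metabolism were tested, and those did not pass. Of 19 genes for the synthesis and methylation of homogalacturonan, the pectin backbone that these esterases act on, 2 were tested. GAUT15, of the galacturonosyltransferase family, had a log2 difference of 0.01 (limma adjusted p = 0.999) and AT3G49720, a pectin methyltransferase gene known as CGR2, had 0.14 (adjusted p = 0.942). Of 12 pectin acetylesterase genes, which remove acetyl groups instead of methyl groups, 5 were tested and 0 passed in limma's test, with 1 higher at an unadjusted p under 0.05. That gene, AT5G26670, averaged 261 ± 59.9 in the overexpressor and 167 ± 20.8 in wild type (SD, n = 3 each), with a difference of 0.58 and adjusted p = 0.389. AT3G05910 and AT3G09405 had differences of 0.18 and -0.09 (limma adjusted p = 0.926 and 0.985). Polygalacturonase and pectate lyase genes were not analysed here.

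Genes of these families often lie side by side, and neighbours need not share the difference. AT5G07420 and AT5G07430, adjacent in the RefSeq gene table, were both lower. AT3G05620, the esterase gene next to AT3G05610, averaged 44.1 ± 4.52 in the overexpressor and 32.1 ± 1.47 in wild type (SD, n = 3 each), with a log2 difference of 0.32 (limma adjusted p = 0.605) beside -4.05 for AT3G05610. AT3G62180 lies next to the esterase gene AT3G62170, and AT5G07420 lies next to the esterase gene AT5G07410. Neither of those was analysed here.

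Most tested marker transcripts of mature pollen moved with the lower genes. Of 25 pollen marker genes 13 were tested, and 9 fell, 0 rose and 4 did not pass, which is 69.2% lower against 2.17% of all tested probe sets. The 9 were the receptor-like kinase genes ANX1, ANX2, AT4G39110 and AT2G21480, the extensin genes AT3G19020, AT1G49490, AT2G15880 and AT4G33970, and the actin gene ACT12, with log2 differences from -3.67 to -1.69. AGL66, AGL104, TUB9 and AGL65 did not pass, with log2 differences of -0.91, -0.77, -0.59 and -0.12. At an unadjusted p under 0.05 limma gave 12 of the 13 lower, all but AGL65, and 0 higher. Over all tested probe sets 5.73% were lower at that level. The summed signal of the 13 was 945 to 1831 in the overexpressor and 3097 to 5312 in wild type, and no marker was listed at 0. TUB9 alone made up most of each overexpressor sum, reading 760.2, 1303 and 982.8 in replicates a, b and c. In overexpressor replicates a, b and c the median marker kept 5.65%, 26.3% and 5.99% of its wild-type mean, so b was highest here as well. This count too depended on single arrays: 3 markers fell when wild-type replicate a was left out, and 2 when overexpressor replicate a or c was. By limma's adjusted p, 0 fell when wild-type replicate b or both arrays lettered a were left out, with 9 lower at an unadjusted p under 0.05 in either setting. The part of pollen in the difference of the 8 genes was not tested.

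For other parts of the flower few markers had a single-gene probe set in the annotation used. The sperm cell marker MGH3, below the filter and without a test, averaged 4.73 ± 3.96 in the overexpressor and 44.2 ± 30.5 in wild type (SD, n = 3 each). The 2 tapetum markers read at most 14.9 on any array, and the floral organ identity genes were not analysed here. Of 4 tested carpel and ovule genes 0 passed in limma's test, and 0 at an unadjusted p under 0.05. NGA2, ALC, NGA4 and NGA1 had log2 differences of 0.37, 0.32, 0.15 and -0.13, beside 0.75 for AT3G43270, and the part of carpel tissue in that difference was not tested. Of 4 reference genes, likewise 0 passed at either level, and AT4G34270, AT2G28390, PEX4 and GAPC2 had differences of 0.33, 0.18, 0.08 and -0.05.

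Of 9466 tested single-gene probe sets outside the 8, those most like the mean pattern of the 7 lower genes over the 6 arrays included genes of the same families. The 5 with the highest Pearson correlation were AT1G49290, AT2G47050, AT5G27870, AT3G03430 and AT5G27980, all with r of at least 0.998. Of these, AT5G27870 is one of the esterases and AT2G47050 one of the inhibitor family genes described above. AT1G49290 averaged 27.5 ± 28.3 in the overexpressor and 518 ± 152 in wild type (SD, n = 3 each). For AT3G43270 the 5 most alike were AT5G59250, GLC, AT1G49450, AT5G67290 and AT1G28710, with r from 0.98 to 0.99. GLC, a gene of fertilisation, averaged 1331 ± 16.1 in the overexpressor and 716 ± 63.5 in wild type (SD, n = 3 each). Over 6 arrays in 2 groups such values mostly follow the difference between the groups.

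The size of the 8 differences depended on the setting more than their direction did. Over 15 or 16 other settings for each gene, 0 changed sign. The log2 difference of AT3G43270 stayed between 0.65 and 0.80. That of AT3G17060 ran from -5.22 with a pseudocount of 1 to -3.27 with 64, and its signal of 2.8 in overexpressor replicate c lay below the pseudocount of 16. With single arrays left out in turn, AT5G07430 ran from -4.89 to -3.19 and AT2G47550 from -2.72 to -2.39.

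**Figure D4:**
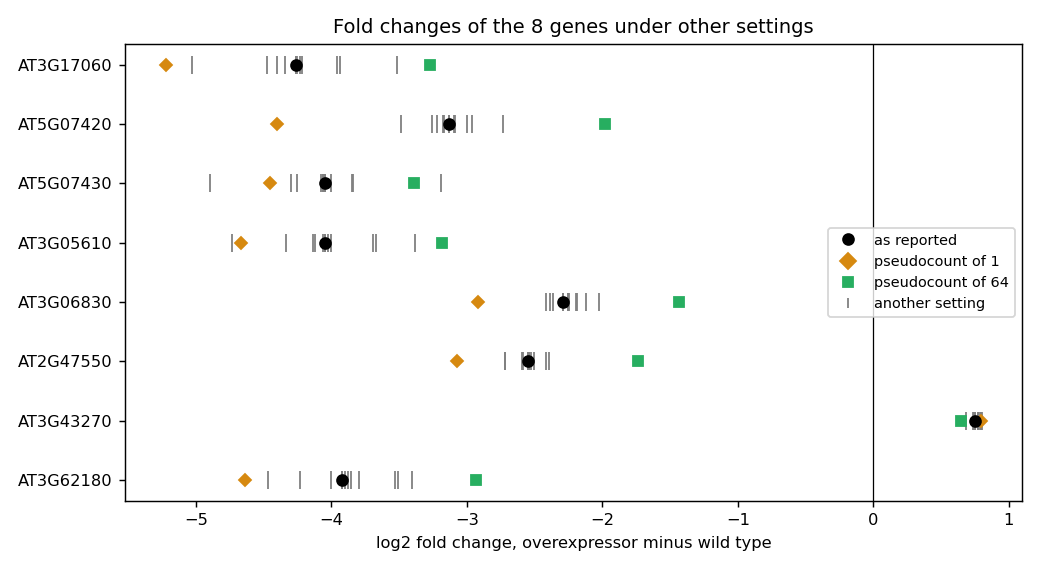
Log2 difference, overexpressor minus wild type, of each of the 8 genes as reported (black circles), with a pseudocount of 1 (orange diamonds) or 64 (green squares) and under each other setting (grey ticks). All values of the 7 lower genes lie below 0 and all values of AT3G43270 between 0.65 and 0.80.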

How the data were processed

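The authors deposited 1 table of signal intensities on a linear scale, 1 value per probe set and array, for 22810 probe sets and 6 arrays. No label or header names the software or normalisation behind it. The mean after trimming 2% at each end was 200 on every array (200.01 to 200.02), so the values had been scaled. No 2 arrays were identical.

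The 64 control probe sets and the dimmest 25% of the others by mean were left out, and 17059 probe sets were fitted on log2(signal + 16) with limma 3.58.1 in R 4.3.3 (two-sided, Benjamini-Hochberg over all tested, threshold 0.05). The fit was also run on simulated data drawn independently for each array. The arrays here share deviations by letter, so that run says nothing about this and no conclusion is drawn from it. Genes were named through the platform annotation and the RefSeq gene table (assembly TAIR10.1): 13484 of 13513 single-gene probe sets matched a locus, and a gene's probe set with the highest mean was used. The annotation held 14016 probe sets, against 22810 deposited. Genes without a single-gene probe set in it were not analysed, whether or not the array reads them. The number of arrays limits the precision.

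The 8 genes and all gene lists were chosen with earlier results of these data known. Named are the 8, all called genes of each list or else the 3 with the smallest p, and the 5 genes most alike in pattern. Others are named after their values were seen. Deviations from the group means correlated between arrays of the same letter (r was 0.57 in a, 0.36 in b, 0.38 in c), so the letters were taken as pairs for the fit with a block. Planned sequence comparisons were not run.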

Additional observations from a re-analysis of the deposited data

How the results depend on the processing

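None of the 8 genes, and none of the 15 other family genes called, changed direction under any setting run. Against 370 probe sets lower and 23 higher, a pseudocount of 1 gave 209 and 13, array weights 39 higher, the replicate block 570 and 71, leaving out the lowest 50% 180 lower, and leaving out both arrays lettered a (chosen after the data were seen) 84 and 9. With 1 array left out they ran from 30 to 386 and from 0 to 16; limma gave 345 higher at an unadjusted p under 0.05 where the adjusted count was 0. Of the other esterase genes, 7 of 20 tested fell. The count was 3 of 21 with a pseudocount of 1 and 4 of 37 with no filter. With the lowest 50% left out it was 3 of 10, and without both arrays lettered a 0 of 20. It ran from 0 to 6 with 1 array left out. Of the other inhibitor family genes, 4 fell with a pseudocount of 1 and 0 without both arrays lettered a, against 7, and from 0 to 8 with 1 array left out. The count of those that rose, 1, was 0 with a pseudocount of 1 or 64, no filter, the lowest 50% left out or both arrays lettered a left out (3, 3, 3, 3 and 5 at an unadjusted p under 0.05 in limma), 2 with the replicate block, and from 0 to 2 with 1 array left out. Of the pollen markers, 9 of 13 tested fell. The count was 3 of 12 with a pseudocount of 1 and 4 of 13 with no filter. With the lowest 50% left out it was 4 of 6, and without both arrays lettered a 0 of 11. It ran from 0 to 8 with 1 array left out. The block changed no other call of the family genes. Where fewer arrays or probe sets entered, the settings differ in that too; otherwise the cause was not tested. Signals near the pseudocount limit how deep a fall can be read.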
